A study of Drosophila melanogaster with 9 samples.

Results

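The cytosolic ribosomal protein genes were described in *brat*-null larval brains before and during transient Insb overexpression. Members were the genes whose name in the count table starts with RpL or RpS followed by a digit, or by a capital letter and a digit, so that *RpLP0*, *RpLP1* and *RpLP2* were included and the mitochondrial mRpL and mRpS genes were not. This rule found 90 of the 14560 genes in the table, and all 90 were matched to an annotated gene. Both *sta* and *Rack1*, which encode proteins of the small subunit under names of their own, fall outside the rule and are described at the end.

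Poly-A mRNA from pooled brains was sequenced at 0, 9 and 18 hr of Insb overexpression, with 3 replicates per group. All larvae were *brat11*/*Df(2L)Exel8040*, the second allele being a deletion, and carried *2xTub-Gal80ts*, *Wor-Gal4* and *UAS-insb*, so that the *brat* genotype and the transgenes were shared by every group. The methods list *Wor-Gal4*, a neuroblast driver, for the sequenced larvae, whereas the study's account of the strategy names *Wor-Gal4,AseGal80*, restricted to type II neuroblasts, and the sources used here do not settle which was present. The 0 hr group stayed at 25 °C throughout, and the others were moved to 33 °C, where Gal80ts no longer blocks Gal4, for their last 9 or 18 hr, so duration of Insb overexpression and time in the heat cannot be told apart. Insb (Insensible) is a nuclear protein used here to push supernumerary neuroblasts toward becoming intermediate neural progenitors (INPs), and the time series asks which transcripts follow.

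A ribosome joins a small subunit, which reads the mRNA, to a large subunit, which makes peptide bonds, and each cytosolic ribosomal protein is normally present in a single copy per ribosome apart from the stalk proteins. Their mRNAs are among the most abundant in growing cells, are made in step with ribosomal RNA, and in flies respond to TOR and Myc activity. Neuroblasts are large, fast-cycling stem cells with a high demand for new ribosomes, and Brat belongs to the factors that restrain growth in their progeny. Loss of 1 copy of many of these genes gives the Minute phenotype of slow growth and thin bristles in flies.

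Library totals lay between 26533845 and 37109356 counts. The induced gene, *insb*, listed as *CG6520*, had 32.5 to 36.9 CPM (library-scaled counts, by the TMM method of edgeR) at 0 hr, 369 to 396 at 9 hr and 310 to 359 at 18 hr, which matched the labels; endogenous and transgenic *insb* were not separated. The *brat* transcript itself was at 197 to 281 CPM over the 9 libraries, and whether that RNA yields a working protein was not measured. Replicates 2 and 3 of the 9 hr group were nearly the same: over 8163 genes with 20 to 6000 counts their median chi-square was 0.812, where sampling alone gives 0.455, or 0.91 if both reads of a pair are counted, and other replicate pairs gave 2.03 to 6.26. They were counted as 1 sample in means and SDs (n = 2 at 9 hr) and kept as separate libraries in the tests. Neuroblast, neuron and glia markers were all detected, and so were those of fat body, muscle, hemocytes and germline, with none at 0 in every library. The summed level of the 7 fat body genes was 305 to 449 CPM at 0 hr, 235 to 536 at 9 hr and 261 to 1084 at 18 hr. The 1084 CPM was in 18 hr replicate 1 alone, and the other 18 hr libraries lay below the 0 hr range. That of the 10 neuroblast genes was 3163 to 3356 CPM at 0 hr, 2677 to 2763 at 9 hr and 2251 to 3091 at 18 hr. The neuroblast genes moved in both directions, with log2 fold changes against 0 hr above 0 in 3 of the 10 at 9 hr and 5 at 18 hr. They were 0.45 and 1.05 for *ase*, which the paper describes as rising during INP commitment, and -1.04 and -1.10 for *tll*.

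Ribosomal protein mRNAs made up a large part of every library. Of the 100 most abundant genes 60 were members, and 78 of the 90 members had more than 10000 counts in every library, so that for most of them counting error was small beside the spread between replicates. Dividing CPM by the median annotated transcript length, the 78 members that are not minor paralogs had a median of 2346 CPM per kb over the 9 libraries, with quartiles of 1955 and 2738. The median over the 10725 tested genes with an annotated length was 13.9 CPM per kb, or 169-fold lower. Transcripts of the tested members were short, at a median of 708 bases against 1865.5 for the genes with a length.

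Most members lay in a narrow band of levels per length, with a few far outside it. *RpL41*, which encodes an unusually short peptide of the large subunit, was the highest at 7413 CPM per kb, well above *RpS7* (3554), *RpL36* (3432), *RpS27A* (3305) and *RpL27A* (3276). *RpS27A* encodes a small-subunit protein fused to ubiquitin. At the low end, *RpL17*, whose protein sits near the exit of the peptide tunnel, had 193 CPM per kb, below *RpL38* (752), *RpL22* (820), *RpL15* (897) and *RpS14a* (1123). The length used is a median over annotated transcripts, and the transcripts in use in these brains were not measured. RpL17 (chromosome X, 6741537 to 6744238) has 5 annotated transcripts of 830 to 1100 bases.

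**Figure D1:**
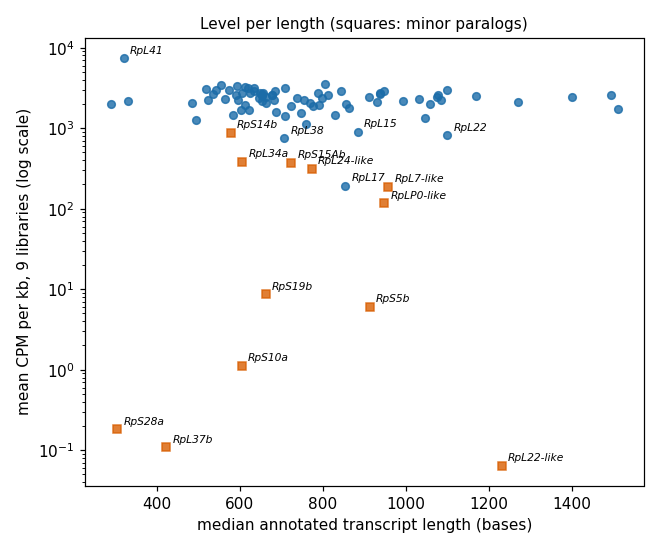
Mean level over the 9 libraries in CPM per kb (log scale) against median annotated transcript length in bases for each of the 90 members; circles are members that are not minor paralogs and squares are minor paralogs. Most circles lie near the median of 2346 CPM per kb, *RpL41* lies above them at 7413 and *RpL17* below them at 193, and the squares reach down to 0.0646 for *RpL22-like*.

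The summed share of all counts taken by the 90 members was higher after Insb overexpression. It was 13.2%, 13.4% and 12.6% in 0 hr replicates 1 to 3, 15.0%, 13.8% and 14.0% at 9 hr, and 14.3%, 13.6% and 14.3% at 18 hr. All 6 libraries with Insb overexpression lay above all 3 without, and 9 hr replicate 1 was the highest of the 9. The group values were 13.0% ± 0.400 (SD, n = 3), 14.5% ± 0.758 (SD, n = 2) and 14.1% ± 0.382 (SD, n = 3). The 9 hr group was thus 1.41 percentage points and the 18 hr group 1.05 points above the 0 hr group, while the difference of 18 hr from 9 hr (-0.36 points) was within the spread. Without 9 hr replicate 1 the 9 hr group was 0.878 points above the 0 hr group, and the 18 hr share was 0.171 points above the 9 hr share. No test is given for this sum over genes. In whole brains, more cells rich in these mRNAs and more of the mRNAs per cell cannot be told apart, and since a share is relative, it does not show how much RNA a brain held.

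**Figure D2:**
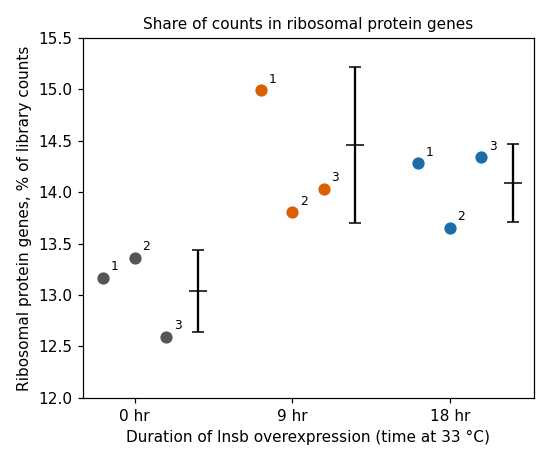
Percent of each library's counts that fell in the 90 ribosomal protein genes, by hours of Insb overexpression (hours at 33 °C); each point is a library with its replicate number, and the bars give mean ± SD with 9 hr replicates 2 and 3 counted as 1. The 0 hr libraries sit between 12.6% and 13.4% and all others between 13.6% and 15.0%.

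Gene by gene, 87 members passed the filter on low counts and were tested together with all 10799 genes (edgeR quasi-likelihood test, Benjamini-Hochberg adjustment); a gene is called higher or lower at an adjusted p under 0.05. At 9 hr 16 of the 87 were higher than at 0 hr, against a background of 6.62% of all genes, and 2 were lower, *RpL41* and *RpL30*, against 5.22%. The split was 20 to 0 with upper-quartile scaling and 19 to 0 with library totals alone, but 4 to 0 with the near-identical 9 hr pair summed and 3 to 0 without 9 hr replicate 1. Only *RpL22* and *RpS19b* also changed by at least 1.5-fold, as did 2.49% of all genes in that direction. The changes were small: 54 members stayed within 10% of their 0 hr level, and the median log2 fold change of the members was 0.05 beside 0.003 for all genes, and 0.019 without 9 hr replicate 1 or 0.028 without 0 hr replicate 1. Log2 fold changes were above 0 in 62 members (background 50.4%), and 34 had an unadjusted p under 0.05 (background 28.6%), 31 of them higher. Every 9 hr library exceeded every 0 hr library in 32 members (background 21.1%) and lay below in 3 (background 18.9%). By subunit, 7 of 45 tested large-subunit genes, 6 of 36 small-subunit genes, 2 of 3 stalk genes and 1 of 3 tested genes with -like names were higher, and both genes that were lower belong to the large subunit.

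The summed level of the members was 8.78% higher at 9 hr than at 0 hr, on the CPM scale, with 9 hr replicates 2 and 3 counted as 1. That gives more weight to 9 hr replicate 1, the highest library. As a percent of scaled counts, the sum was 13.1, 13.3 and 13.0 in the 0 hr replicates and 14.7, 13.7 and 13.9 in the 9 hr replicates. The 16 higher genes carried 54.6% of the rise, and the other 74 members together were 4.76% higher. The 16 were chosen as higher in these same libraries, so their larger part follows from that choice. The 16 genes were *RpL4*, *RpL17*, *RpL18*, *RpL22*, *RpL23A*, *RpL34b* and *RpL37A* of the large subunit, *RpS2*, *RpS3*, *RpS10b*, *RpS19a*, *RpS19b* and *RpS20* of the small subunit, *RpLP0* and *RpLP2* of the stalk, and *RpL24-like*.

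**Figure D3:**
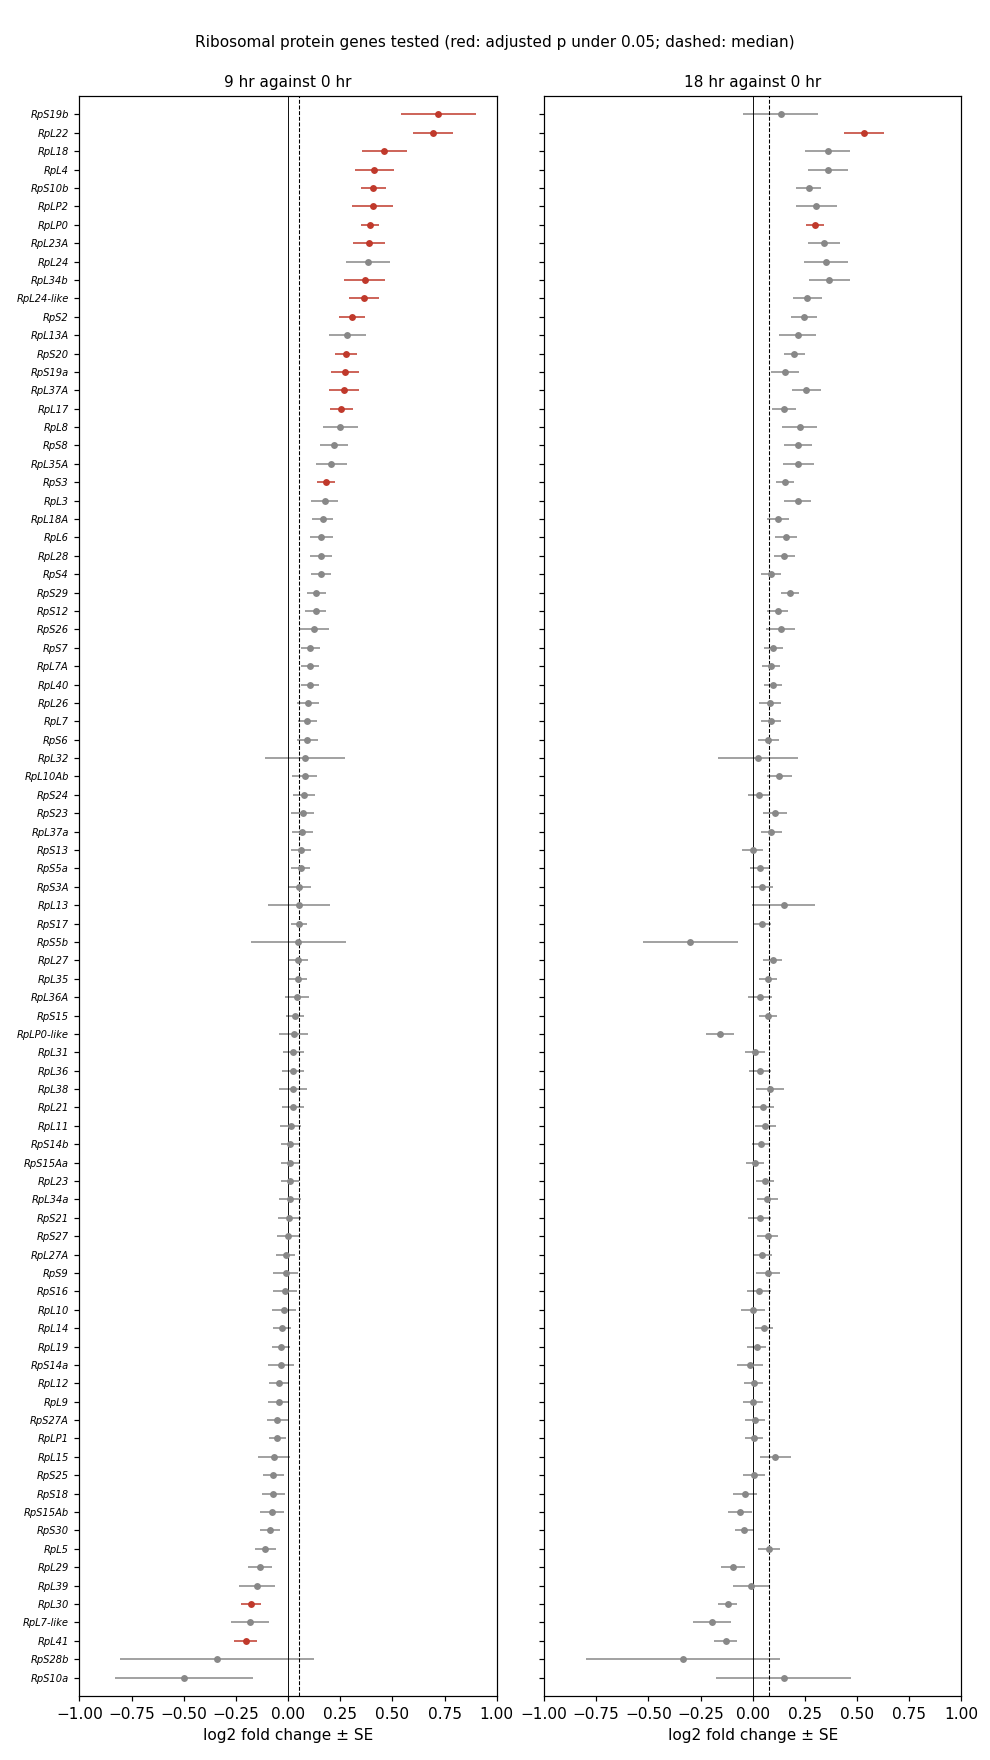
Log2 fold change ± SE of 86 of the 87 tested members at 9 hr (left) and 18 hr (right) against 0 hr, both in the order of the 9 hr values; red marks adjusted p under 0.05 and the dashed line the median of all 87 members. At 9 hr 16 genes are red to the right of 0 and 2 to the left; at 18 hr only *RpL22* and *RpLP0* are red, while most points still lie to the right of 0.

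*RpL22* showed the largest change among the abundant members. Its protein lies on the outer surface of the large subunit, and flies carry a second copy, *RpL22-like*, used mainly in testis. *RpL22* (chromosome X, 762560 to 765130) measured 772, 621 and 604 CPM in the 0 hr replicates, 1142, 1007 and 1083 at 9 hr, and 969, 923 and 999 at 18 hr. No library with Insb overexpression overlapped the 0 hr libraries. The log2 fold change was 0.69 ± 0.096 (SE; edgeR adjusted p = 0.00547) at 9 hr and 0.53 ± 0.096 (edgeR adjusted p = 0.037) at 18 hr. An annotated non-coding gene on the same strand, lncRNA:CR42491, shares 377 exon bases with *RpL22*, and reads of these 2 genes could have been divided in counting.

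The stalk recruits elongation factors to the ribosome, and its genes did not move together. *RpLP0* (chromosome 3L, 22075867 to 22077487), the base of the stalk, measured 2397, 2276 and 2224 CPM at 0 hr, 3091, 2934 and 3018 at 9 hr, and 2813, 2820 and 2858 at 18 hr. Its groups were tight and well apart, with log2 fold changes of 0.39 ± 0.043 (edgeR adjusted p = 0.0029) and 0.30 ± 0.043 (edgeR adjusted p = 0.0169). *RpLP2* (chromosome 2R, 16586129 to 16586732), one of the flexible arms, measured 1576, 1387 and 1180 CPM at 0 hr, 1950, 1739 and 1801 at 9 hr, and 1771, 1674 and 1669 at 18 hr. It was higher at 9 hr (log2 fold change 0.41 ± 0.098, edgeR adjusted p = 0.0344) and missed the threshold at 18 hr (0.30 ± 0.098, edgeR adjusted p = 0.16). With the near-identical 9 hr pair summed it was not called at 9 hr (edgeR adjusted p = 0.0819). *RpLP1* (chromosome 2L, 419952 to 420864), its partner in the arms, measured 1934, 2002 and 2021 CPM at 0 hr, 1982, 1885 and 1880 at 9 hr, and 1955, 2045 and 1989 at 18 hr. These groups overlapped, and the log2 fold change at 9 hr was -0.05 ± 0.042. The difference between *RpLP1* and its partners was not tested.

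In the small subunit, *RpS10b* had the largest rise among the abundant genes. *RpS10b* (chromosome X, 19598031 to 19599806) measured 1317, 1217 and 1160 CPM at 0 hr, 1725, 1551 and 1628 at 9 hr, and 1526, 1440 and 1482 at 18 hr. The order of the groups was 9 hr, 18 hr, 0 hr without overlap, and the 9 hr change was 0.41 ± 0.061 on the log2 scale (edgeR adjusted p = 0.00718), against 0.27 ± 0.061 (edgeR adjusted p = 0.0687) at 18 hr. *RpS20* (chromosome 3R, 20822181 to 20823356) rose less, from 1085, 1151 and 1196 CPM at 0 hr to 1457, 1348 and 1357 at 9 hr (log2 fold change 0.28 ± 0.052, edgeR adjusted p = 0.0145). *RpS3*, whose protein sits where mRNA enters the small subunit, with 1974 to 2014 CPM at 0 hr and 2189 to 2358 at 9 hr, had the smallest rise that was called, at 0.18 ± 0.043. With the near-identical 9 hr pair summed *RpS3* was not called (edgeR adjusted p = 0.0778).

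In the large subunit, several rises came with a wide 0 hr group. *RpL4* (chromosome 3R, 27922821 to 27924888), which lines the peptide tunnel, measured 3261, 2849 and 2442 CPM at 0 hr, 3863, 3721 and 3809 at 9 hr, and 3453, 3754 and 3771 at 18 hr. *RpL18* (chromosome 3L, 7240203 to 7241351) measured 1320, 1117 and 937 CPM at 0 hr, 1613, 1483 and 1550 at 9 hr, and 1440, 1411 and 1478 at 18 hr. *RpL34b* (chromosome 3R, 9400237 to 9401226) measured 1031, 926 and 765 CPM at 0 hr, 1234, 1125 and 1153 at 9 hr, and 1160, 1167 and 1187 at 18 hr. In all 3 genes 0 hr replicate 1 was the highest and replicate 3 the lowest of the 0 hr group, and the later groups were compact. Log2 fold changes at 9 hr were 0.41 ± 0.095 for *RpL4*, 0.46 ± 0.108 for *RpL18* and 0.37 ± 0.097 for *RpL34b*, with edgeR adjusted p of 0.0298, 0.0316 and 0.0461. With the near-identical 9 hr pair summed none of the 3 was called (edgeR adjusted p = 0.0825, 0.0818 and 0.102). They were called in 13, 12 and 7 of 19 alternative fits. *RpL24* (chromosome 2L, 13393687 to 13395131), at 0.38 ± 0.106, just missed the threshold (edgeR adjusted p = 0.0513). *RpL17*, the gene of low level, rose by 0.26 ± 0.057 (edgeR adjusted p = 0.0264) from 145 to 156 CPM at 0 hr to 168 to 188 CPM at 9 hr. With the pair summed *RpL17* was not called (edgeR adjusted p = 0.0594).

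Both genes called lower at 9 hr fell by little. *RpL41* (chromosome 2R, 24903416 to 24903935) measured 2419, 2614 and 2641 CPM at 0 hr, 2327, 2168 and 2168 at 9 hr, and 2371, 2228 and 2414 at 18 hr. *RpL30* (chromosome 2L, 19008031 to 19009306), whose yeast homolog binds and restrains its own transcript, measured 1021, 1105 and 1082 CPM at 0 hr, 989, 919 and 927 at 9 hr, and 983, 980 and 988 at 18 hr. In both genes all 0 hr libraries were above all others. Their log2 fold changes at 9 hr were -0.20 ± 0.055 and -0.18 ± 0.047 (edgeR adjusted p = 0.0491 and 0.0461), and at 18 hr neither was called (-0.13 ± 0.055 and -0.12 ± 0.047). With the near-identical 9 hr pair summed neither was called at 9 hr (edgeR adjusted p = 0.152 and 0.147). Each was called in 6 of 19 alternative fits. *RpL39*, *RpL7-like* and *RpS28b* had lower fitted values too, none of which passed the test.

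At 18 hr 2 members were higher than at 0 hr, *RpL22* and *RpLP0*, against a background of 0.907%, and none was lower (background 0.75%). Of the 87 members, 29 had an unadjusted p under 0.05 (background 17.8%), of which 2 were lower. The DESeq2 Wald test called 16 higher and none lower. The share of all genes called by that test is not given here, so its count cannot be read against 0.907%. The 16 genes that edgeR called higher at 9 hr all had log2 fold changes above 0 at 18 hr, but both comparisons use the same 0 hr libraries. In 15 of them the change was smaller than at 9 hr. They were chosen for high 9 hr values, and smaller changes at 18 hr can follow from that choice alone. The median over the members was 0.08 beside 0.013 for all genes, 74 members were above 0 (background 52.5%), 40 had all 18 hr libraries above all 0 hr libraries (background 11.4%), and 2 had all below (background 9.53%). The summed CPM was 7.95% above that at 0 hr, and the 74 members outside the 16 were together 5.22% higher.

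Between 9 and 18 hr no member was called in either direction (background 0.00926% higher and 0% lower). The lowest edgeR adjusted p was 0.302, 5 members had an unadjusted p under 0.05 (background 10.8%), and the DESeq2 Wald test called only *RpL5*, higher at 18 hr. Their median log2 fold change was 0.007.

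The rise at 9 hr leaned on particular libraries. Replicate 1 of the 9 hr group was the highest of all 9 libraries in 49 of the 87 members (56.3%; 17.7% of all genes) and in all 16 higher genes, and 0 hr replicate 3 was the lowest library in 13 of those 16. The lowest library over the 87 members was 0 hr replicate 3 in 27 (31.0%; background 12.8%) and 0 hr replicate 1 in 26 (29.9%; background 12.7%). In the 16 genes, 0 hr replicate 1 lay above replicate 3 by a median of 1.17-fold, whereas over the tested members this ratio was 0.959 and over all genes 0.984. Without 9 hr replicate 1 only *RpL22*, *RpLP0* and *RpS10b* were called, and without 0 hr replicate 3, 8 genes were. Leaving out 0 hr replicate 2 left 4 genes, 9 hr replicate 2 left 6, 9 hr replicate 3 left 4, and 18 hr replicate 3, which enters through the shared spread, left 9. With the near-identical pair summed as 1 library, 4 genes were called higher, *RpS20* beside those 3, and none was lower. *RpL22*, *RpLP0* and *RpS10b* were called at 9 hr in all 19 alternative fits, with a highest adjusted p of 0.0277, 0.0173 and 0.0324 in turn. At 18 hr *RpLP0* was called in 13 of the 19 and *RpL22* in 8; neither was called without 0 hr replicate 2, 0 hr replicate 3, 9 hr replicate 3 or 18 hr replicate 3.

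**Figure D4:**
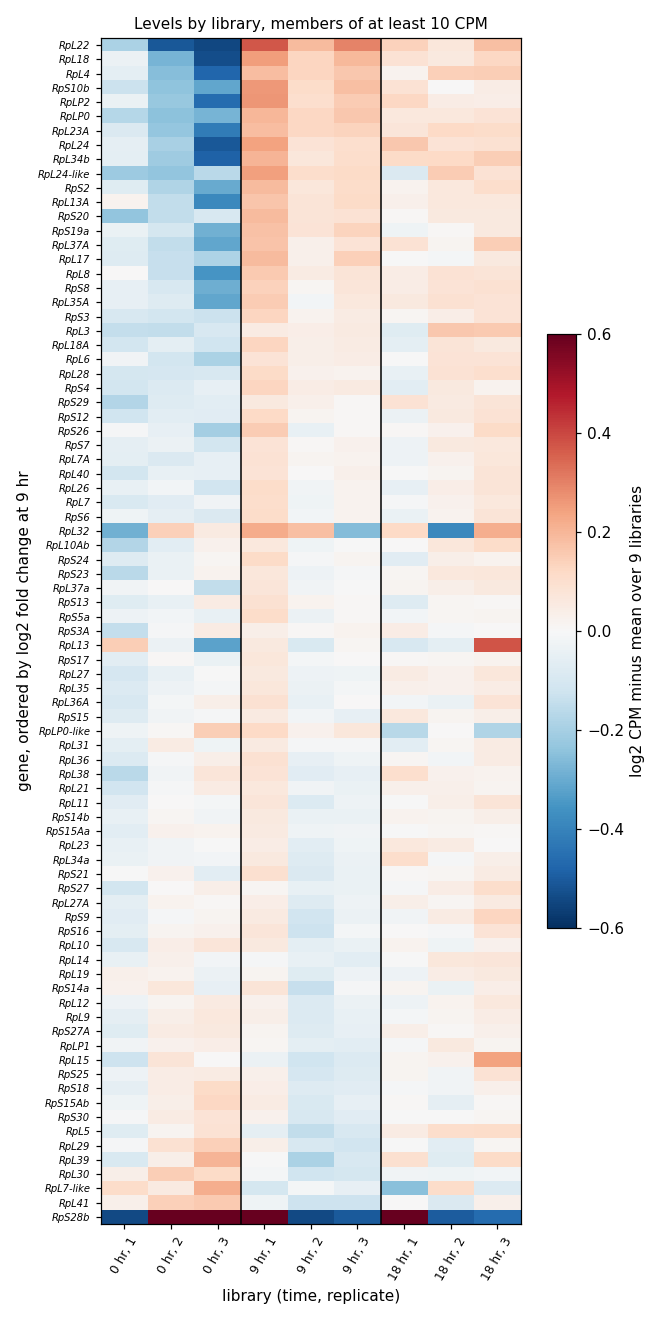
Log2 CPM in each library of the members shown, all with a mean of at least 10 CPM, minus the gene's mean over the 9 libraries, ordered by log2 fold change at 9 hr; the color scale ends at -0.6 and 0.6, which clips *RpS28b*. Genes at the top are low in the 0 hr libraries, most so in replicate 3, and highest in 9 hr replicate 1, while *RpS28b*, *RpL32* and *RpL13* change from library to library within groups.

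A few members varied within groups in a way that time did not follow. *RpS28b* (chromosome X, 9554623 to 9555661), which encodes a small-subunit protein close to the mRNA exit, measured 735, 1623 and 1670 CPM at 0 hr, 1690, 734 and 755 at 9 hr, and 1662, 755 and 777 at 18 hr. Its libraries fell into a high level and a low level, each group held both, and the largest fold within a group was 2.30. *RpL32* (chromosome 3R, 30045229 to 30046161), widely used as a reference transcript in fly PCR under its name rp49, measured 1308, 1760 and 1658 CPM at 0 hr, 1861, 1806 and 1331 at 9 hr, and 1734, 1220 and 1858 at 18 hr. *RpL13* (chromosome 2L, 9967313 to 9968645) measured 1693, 1492 and 1224 CPM at 0 hr, 1594, 1436 and 1543 at 9 hr, and 1429, 1467 and 1989 at 18 hr. The libraries that were high differed from gene to gene.

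Over the 84 members with at least 1000 counts in every library, the largest fold between replicates of a group had a median of 1.11. It was 2.30 in *RpS28b*, 1.52 in *RpL32* and 1.39 in *RpL13*. *RpL13* was not set apart by this value: it was 1.41 in *RpL18* and 1.34 to 1.37 in *RpL24*, *RpL34b*, *RpLP2* and *RpL4*, each within the 0 hr group. In *RpL32* even 9 hr replicates 2 and 3, nearly identical over most genes, differed by more than 0.2 on the log2 scale. Of the 90 members 21 have 1 annotated transcript. Like most members, *RpS28b*, *RpL32* and *RpL13* have several of unequal length, in turn 520 and 972, 524 to 747, and 774 to 1186 bases. In *RpS26*, whose longest transcript is 2.83 times its shortest, the largest fold within a group was 1.15. The deposited counts came from StringTie, and whether the steps lie in the RNA or in the counting was not tested. Fold changes of *RpS28b*, *RpL32* and *RpL13* carried large errors (for *RpS28b* -0.34 ± 0.466 at 9 hr) and none was called. Leaving these 3 out, a choice made after seeing the data, moved the difference in share between 9 and 0 hr from 1.41 to 1.397 points.

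**Figure D5:**
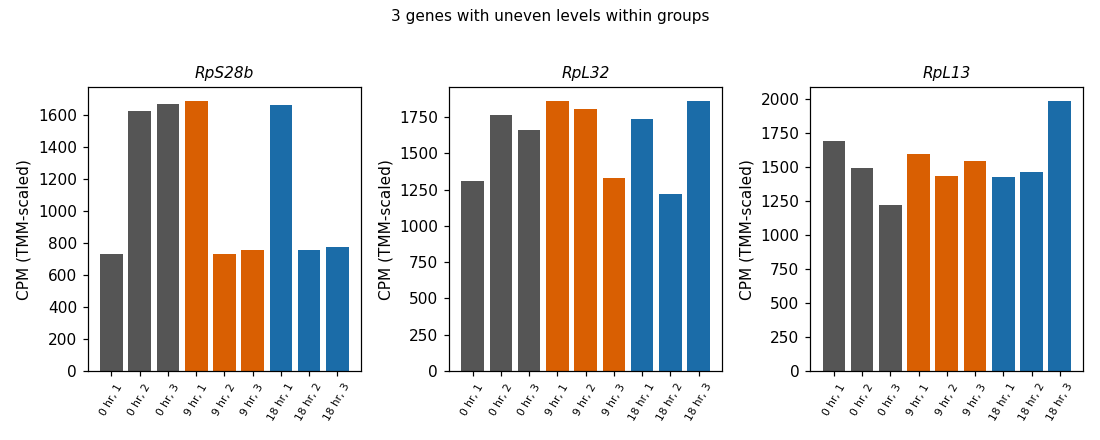
CPM in each library for 3 members with steps within groups; bars are single libraries, colored by hours of Insb overexpression. *RpS28b* alternates between about 734 to 777 and 1623 to 1690 CPM, with both levels in every group.

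Of the 12 minor paralogs, 3 had too few counts to be tested. *RpL22-like* had no count at 0 hr, 4, 8 and 0 counts at 9 hr and 4, 6 and 3 at 18 hr beside a partner that was among the abundant members. *RpL37b* had at most 5 counts in a library and *RpS28a* at most 6, and no difference between groups can be read at that depth. Genes with germline-enriched use in flies were also low: *RpS19b* made up 0.201% to 0.407% of its pair with *RpS19a*, *RpS5b* 0.147% to 0.285% of its pair with *RpS5a*, and *RpS10a* 0.022% to 0.0815% of its pair with *RpS10b*. *RpS19b* (chromosome 3R, 23932729 to 23933530) measured 3.43, 5.49 and 4.87 CPM at 0 hr, 8.10, 7.35 and 7.26 at 9 hr, and 4.84, 5.51 and 4.78 at 18 hr. It was higher at 9 hr (log2 fold change 0.72 ± 0.180, edgeR adjusted p = 0.0382), with 0.14 ± 0.180 at 18 hr and no test passed between 9 and 18 hr. Its abundant partner *RpS19a* (chromosome X, 16637894 to 16639249) had 0.27 ± 0.066 (edgeR adjusted p = 0.0351) at 9 hr. With the near-identical 9 hr pair summed neither *RpS19b* nor *RpS19a* was called at 9 hr (edgeR adjusted p = 0.0949 and 0.0878). The 7 germline markers had a summed level of 49.6 to 61.5 CPM at 0 hr and 37.7 to 45.2 at 9 hr, but they did not all move alike. At 9 hr 2 of the 7 were called lower (background 5.22%). Only *piwi* had a log2 fold change above 0 (0.71 ± 0.317, not called), the direction of *RpS19b*. Any part of germline cells in the *RpS19b* difference was not tested. *RpS5b* and *RpS10a* overlapped between groups in both comparisons with 0 hr.

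Other pairs were more even. *RpS14b* supplied 36.3% to 39.0% of the counts of its pair with *RpS14a*, *RpL34a* 16.2% to 23.0% of its pair with *RpL34b*, and *RpS15Ab* 12.8% to 14.3% of its pair with *RpS15Aa*. The *RpS14* genes are neighbors on chromosome X (7933742 to 7934677 and 7934898 to 7935792) and nearly the same in sequence, so reads may have been divided between them, and the split is uncertain; neither was called. *RpL34a* measured 224 to 228 CPM at 0 hr and 218 to 240 at 9 hr while *RpL34b* rose, so that its share was highest, at 23.0%, in 0 hr replicate 3, where *RpL34b* was lowest.

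The -like genes related to *RpL24*, *RpL7* and *RpLP0* have homologs in yeast (Rlp24, Rlp7 and Mrt4) that act in ribosome assembly rather than in finished ribosomes. *RpL24-like* (chromosome 3R, 11430740 to 11431582) measured 206, 204 and 215 CPM at 0 hr, 285, 258 and 260 at 9 hr, and 227, 267 and 256 at 18 hr. It was higher at 9 hr (log2 fold change 0.36 ± 0.070, edgeR adjusted p = 0.0168), but not called with the near-identical 9 hr pair summed (edgeR adjusted p = 0.0509). *RpLP0-like* (chromosome 2R, 10098518 to 10099590) measured 108, 111 and 122 CPM at 0 hr, 120, 112 and 115 at 9 hr, and 98.3, 110 and 97.4 at 18 hr. *RpL7-like* (chromosome 2L, 12056326 to 12058251) measured 194, 187 and 210 CPM at 0 hr, 167, 179 and 174 at 9 hr, and 151, 195 and 170 at 18 hr. Neither passed the test, and 1771 exon bases of *RpL7-like* are also annotated to CG34164 on the same strand.

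Genes that work with the ribosomal proteins were read from lists chosen with earlier results of these data known. *sta*, which encodes the small-subunit protein RpSA, measured 3334, 2977 and 2453 CPM at 0 hr, 5367, 4782 and 4819 at 9 hr, and 4355, 4443 and 4532 at 18 hr, and *Rack1*, a scaffold on the small subunit, measured 2706, 2617 and 2607 CPM, then 3306, 3225 and 3243, then 3149, 3330 and 3332. Neither overlapped the 0 hr group at either time. The log2 fold changes were 0.77 ± 0.104 and 0.61 ± 0.103 for *sta* (edgeR adjusted p = 0.00514 and 0.0325) and 0.30 ± 0.041 and 0.31 ± 0.041 for *Rack1* (edgeR adjusted p = 0.00525 and 0.0132). The shares of all genes called higher and lower were 6.62% and 5.22% at 9 hr and 0.907% and 0.75% at 18 hr, and the counts of each list below are to be read against them. These shares come from edgeR, and none is given here for the DESeq2 Wald test. Of 38 ribosome assembly genes 4 were higher at 9 hr (*Non1*, *ppan*, *CG4866* and *Rrp4*) and *Non1* at 18 hr, with none lower at either time. At an unadjusted p under 0.05, 0 were lower at 9 hr (background 13.3%) and 9 at 18 hr (background 8.18%), and the DESeq2 Wald test called 0 and 3 lower. Their median log2 fold change was 0.08 at 9 hr and -0.05 at 18 hr, beside 0.05 and 0.08 in the ribosomal protein genes. None of 7 RNA polymerase I genes was called at either time. At an unadjusted p under 0.05 there were 3 at 9 hr (background 28.6%) and 0 at 18 hr (background 17.8%), and the DESeq2 Wald test called 3 and 0.

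Among 26 initiation factors 6 were higher and 1 lower at 9 hr, led by *pAbp*, the poly-A binding protein (0.44 ± 0.049), and 2 were higher at 18 hr. Among 9 elongation and termination genes 3 were higher (*Ef1beta*, *Ef1gamma* and *eRF1*) and 1 lower (*Ef1alpha100E*) at 9 hr, and none was called at 18 hr. At 18 hr 3 had an unadjusted p under 0.05 (background 17.8%), and the DESeq2 Wald test called 2. Of 16 genes that regulate ribosomal protein synthesis or its pathway, *Thor*, which encodes the 4E-BP repressor of cap-dependent translation, was the only one called at 9 hr (3 lower by the DESeq2 Wald test): it measured 144, 170 and 185 CPM at 0 hr and 92.1 to 95.8 at 9 hr, and fell by 0.82 ± 0.204 on the log2 scale (edgeR adjusted p = 0.0382). *Myc*, listed as *dm*, measured 389 to 485 CPM at 0 hr and 282 to 321 at 9 hr without passing the test (-0.48 ± 0.142, edgeR adjusted p = 0.0625). At 18 hr none of the 16 was called, with -0.70 ± 0.204 for *Thor* and -0.63 ± 0.142 for *Myc* (edgeR adjusted p = 0.129 and 0.0681). Of 15 heat response genes only *Hsp23* was called, higher at 9 hr (1.06 ± 0.184). The 0 hr libraries were not alike in these genes: *Hsp68*, a strongly heat-inducible chaperone gene, measured 14.9, 24.9 and 386 CPM at 0 hr, 50.8, 125 and 136 at 9 hr, and 23.4, 256 and 31.8 at 18 hr. Although its label gives no time at 33 °C, 0 hr replicate 3 was the highest of the 9 libraries in *Hsp68* and the listed *Hsp70* genes. *Hsp23*, *Hsp26*, *Hsp27* and *stv* were highest in other libraries. The same 0 hr replicate 3 was the lowest in 13 of the 16 ribosomal protein genes higher at 9 hr, a set chosen for low 0 hr values. Without it 8 members were called higher, and the median log2 fold change of the members was 0.070, against 0.054 with it. The part of heat, of cell composition and of the marker levels given above in the ribosomal protein differences was not tested.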

How the data were processed

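The deposited table holds whole-number counts per gene, not normalized, which the authors made from paired-end reads using HISAT2 (version 2.1.0) for alignment (genome build dm6) and StringTie (version 1.3.4) for quantification. The submitters' processing notes also name FastQC (version 0.11.3) and DESeq2 (version 1.20.0). The annotation, use of strand and treatment of multiply mapped reads are not given in the sources used here, so paralogs and overlapping genes are uncertain. Coordinates are from Ensembl release 115 (assembly BDGP6.54, the dm6 sequence).

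Genes were filtered with filterByExpr, scaled with TMM and tested in a single fit of all 9 libraries with edgeR (version 4.0.16, limma version 3.58.1, R version 4.3.3) by the quasi-likelihood test. The biological coefficient of variation was 0.239. SEs are of log2 fold changes. The code was tested on simulated data. Alternatives covered scaling, filters, DESeq2 (version 1.42.0), a 1.5-fold threshold, the replicate number as a block, the near-identical pair summed, and each replicate left out.

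Members and gene lists were chosen with earlier results of these data known. Genes named with values were those called with a 1.5-fold change, the 5 largest rises and falls at each time at a mean of at least 10 CPM, paralog pairs, and the 5 highest and lowest levels per length; the minor paralogs took the lowest places. *RpLP1*, *RpL17*, *RpL32*, *RpL13*, *RpL38*, *RpL15*, *RpL5*, *RpS20*, *RpS3*, *RpS26* and *Hsp68* were picked after their values were seen, as were the called genes given by name alone. So were *piwi*, *ase*, *tll*, *Hsp26*, *Hsp27*, *stv* and the *Hsp70* genes. The labels do not say that replicates are separate cultures, but the methods call them biological. Values of 1 member are not reported here, and it is left out of the plots that name every gene.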

Additional observations from a re-analysis of the deposited data

How the results depend on the processing

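The count of ribosomal protein genes higher at 9 hr (16) varied widely: it was 25 with the DESeq2 Wald test, 4 with 9 hr replicates 2 and 3 summed, 2 with the 1.5-fold threshold, and 3 to 20 with a replicate left out. The count lower at 9 hr (2) was 0 with upper-quartile factors, library totals, no low-count filter, the compared libraries alone, the replicate block, the pair summed and the 1.5-fold threshold, and 0 to 2 with a replicate left out. The count higher at 18 hr (2) was 16 with the DESeq2 Wald test, 1 with no low-count filter, the pair summed or the replicate block, 0 with the compared libraries alone or the 1.5-fold threshold, and 0 to 3 with a replicate left out. The shares of all genes called by the DESeq2 Wald test are not given here. Between 18 and 9 hr that test called 1 gene higher. The median log2 fold change of that comparison was -0.016 with library totals and -0.016 to 0.041 with a replicate left out, and the difference in share of counts was -0.489 to 0.171 points with a replicate left out, above 0 only without 9 hr replicate 1. *RpS19b* at 18 hr ranged from -0.038 to 0.281 with a replicate left out. The cause was not tested in any of these. No value of another gene changed sign: of the single-gene values under alternatives, 493 kept their side of the threshold, 156 no longer passed it and 10 newly passed it. Counts for the other gene lists were within 1.5 times the reported count in 393 cases and not in 87.

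The libraries showed no steady pairing by replicate number, but with 3 libraries per group this cannot exclude one. Same-numbered libraries had correlations of deviations from group means of -0.107, 0.023 and -0.189 between 0 and 9 hr, 0.442, -0.302 and -0.228 between 0 and 18 hr, and -0.114, -0.097 and 0.006 between 9 and 18 hr, and not every library correlated best with its own number. With the replicate block 11 members were higher at 9 hr, 10 of them also called without it. The difference in share was 1.24 points at 9 hr and 1.05 at 18 hr with the replicate block. It was the same without the block when all libraries were kept separate. With every replicate number in every group, a block cannot change a difference of group means, so these values do not bear on pairing. Depth limited only the 3 members that were not tested and *RpS10a*, which had 13 to 34 counts per library.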
